A study of Picea glauca with 69 samples.

Results

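White spruce (Picea glauca) families raised from controlled crosses (CC) were set against open-pollinated families (OP) that have the same first-numbered tree, for 5 gibberellin genes measured by real-time quantitative PCR. Every CC title of the series entered, 18 seedlings of 6 families, together with the OP titles whose tree number is 122, 129, 138, 193, 754 or 927, 24 seedlings of 6 families. These are 42 of the 69 seedlings and 12 of the 20 families that the titles tell apart. The design text counts 23 families.

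The CC families are named 122*1047, 129*756, 138*752, 193*1045, 754*966 and 927*991, with 3 seedlings each. Each OP family bears 1 tree number, with 3 seedlings, or with 6 in 754_OP and 927_OP, and OP is the control of the study. By breeding convention the first number is the seed parent, so CC and OP of a tree share a mother while the father is a single known tree in CC and unnamed in OP. Each CC family is a single cross, so that the strategy and the particular pollen parent cannot be told apart within a tree. All groups were untreated second-season seedlings, kept in a greenhouse at 16 h light and 8 h dark and at most 25 °C by day and 18 °C by night, with harvest on day 92. The tissue is needles in one label and apical internode in the RNA protocol, and no marker that could separate them was measured.

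Gibberellins promote stem elongation in conifers as in other seed plants. GA20-oxidase and GA3-oxidase carry out the last steps towards the active hormone, and GA2-oxidase inactivates it. Bound hormone lets the receptor GID1 seize DELLA proteins, repressors of growth, which are then degraded.

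Transcript levels are given on the log2 scale relative to the control gene TIF. The closer a value is to 0, the more transcript there was. A difference of 1 is a factor of 2 only if amplification is perfect, which no file states. TIF crossed threshold between 19.67 and 22.48 cycles in the wells run with the oxidase genes and between 19.89 and 22.86 in those run with GID and DELLA. The family was the replicate, since the strategy belongs to the family. Nothing in the labels separates seed lots, so p-values measure only the spread between these families. For each tree the CC mean minus the OP mean was taken, and the 6 differences were tested by an exact two-sided sign-flip permutation test, with Benjamini-Hochberg adjustment over the 5 genes and a threshold of 0.05. The smallest p that 6 trees allow is 0.0312, which would become 0.156 after adjustment if a single gene reached it. The span of the 6 differences is also the exact 96.9% interval of a shift common to all trees.

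CC families had a higher mean of GA3ox than OP families of the same mother in 5 of 6 trees, and a lower mean of GA2ox and of GID in 5 of 6 trees each. GA20ox and DELLA had no common direction. None of these differences passed: 0 of the 5 genes had an adjusted exact p under 0.05, and 0 had an unadjusted one. In bulk RNA, fewer cells that express a gene and less transcript per cell cannot be told apart.

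**Figure D1:**
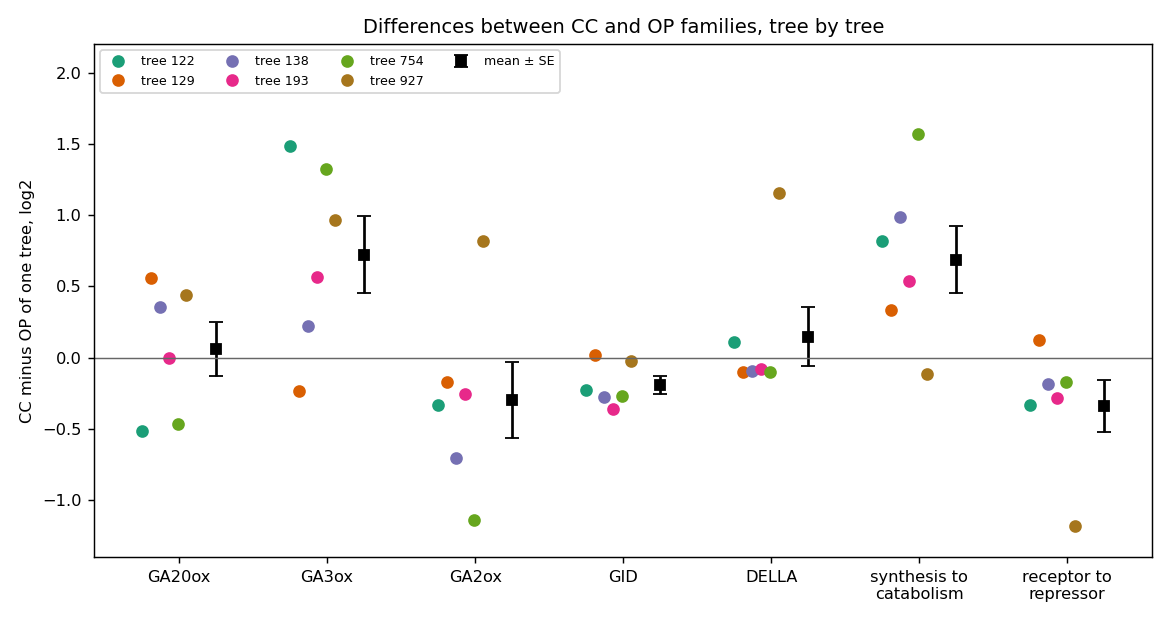
CC minus OP difference of family means for each of the 6 first-numbered trees (coloured points, log2), with the mean and SE over trees (black). GA3ox lies above 0 in 5 of 6 trees and GID below 0 in 5 of 6, while DELLA is near 0 in every tree but 927, where it is 1.16.

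GA20ox, the earlier of the synthesis enzymes measured here, averaged -8.25 ± 0.44 in CC families and -8.31 ± 0.34 in OP families (SD, n = 6 families each). The difference was 0.06 ± 0.19 (SE), or 1.04-fold, with an exact p of 0.812 (adjusted 0.844). The interval ran from 0.702-fold to 1.48-fold, so the 6 pairs leave room for a difference of either sign. Trees split evenly: CC was higher in trees 129 (0.56), 927 (0.44) and 138 (0.36), and it was lower in trees 122 (-0.51), 754 (-0.46) and 193, where the families were nearly equal at -8.50 in CC and -8.49 in OP. The direction of the mean turned when values were recomputed from the deposited cycles, where the last oxidase wells of 754_OP repetition 1 appear misplaced (-0.02), and was 0.06 without those wells. Against all 5 TIF wells it was -0.12 with them and -0.04 without them. The lowest seedling of all 42 was 754*966_CC repetition 1 at -9.34 and the highest 122*1047_CC repetition 3 at -7.25. Both extremes were thus CC seedlings.

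GA3ox, the enzyme that yields the active hormone, averaged -9.93 ± 0.41 in CC families and -10.66 ± 0.41 in OP families (SD, n = 6 each). CC exceeded OP by 0.72 ± 0.27 (SE), or 1.65-fold (interval 0.851 to 2.80), with an exact p of 0.0938 and an adjusted p of 0.234. Of the 6 CC families 4, those of trees 122, 927, 138 and 754, lay above every OP family. Single seedlings spanned a far wider range than the family means. The 18 CC seedlings had a lowest value of -11.82, a median of -10.03 and a highest of -7.93, against -13.09, -10.55 and -8.29 in the 24 OP seedlings, and the groups overlapped in each tree.

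Tree 122 had the widest gap in GA3ox. Its 3 CC seedlings stood at -11.82, -8.01 and -8.84, and its 3 OP seedlings at -11.78, -10.50 and -10.84, a difference of family means of 1.48. The first seedlings of the families were alike, and the gap came from the other CC seedlings. Tree 754 came next at 1.32, with CC seedlings at -9.25, -10.34 and -10.02 against OP seedlings with a lowest value of -12.98, a median of -10.97 and a highest of -9.71. Of its 6 OP seedlings, 5 had GA3ox wells with an SD over 0.5 cycles. Without all values of such wells the GA3ox difference over trees was 0.71 (exact p = 0.0625, adjusted 0.156). That mean does not show tree 754 to be unaffected. Of 754_OP only repetition 5 then remained, at -10.53 against a family mean of -11.19. Also left out were 927*991_CC repetition 3 at -10.60 (family mean -9.59) and 129_OP repetition 2 at -10.24 (family mean -10.44).

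Tree 927 differed by 0.97 in GA3ox and held both the highest seedling of all 42, 927*991_CC repetition 1 at -7.93, and the lowest, 927_OP repetition 2 at -13.09. Its other CC seedlings were at -10.25 and -10.60, inside the OP range of -13.09 to -8.29 around a median of -10.49. Tree 193 differed by 0.57, with CC seedlings at -9.34, -9.73 and -11.11 and OP seedlings at -10.61, -11.08 and -10.20. The lowest CC seedling there lay just under the lowest OP seedling, so the higher CC mean rested on the first and second CC seedlings.

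In tree 138 the GA3ox difference was 0.22, with CC at -10.04, -9.99 and -9.50 against OP at -9.89, -10.27 and -10.03. Tree 129 alone had the opposite sign, -0.23, with CC at -10.42, -10.80 and -10.81 against OP at -10.58, -10.24 and -10.52. Both trees were tight: the SD within each of their families was 0.18 to 0.30, against 2.00 in 122*1047_CC and 1.98 in 927_OP.

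**Figure D2:**
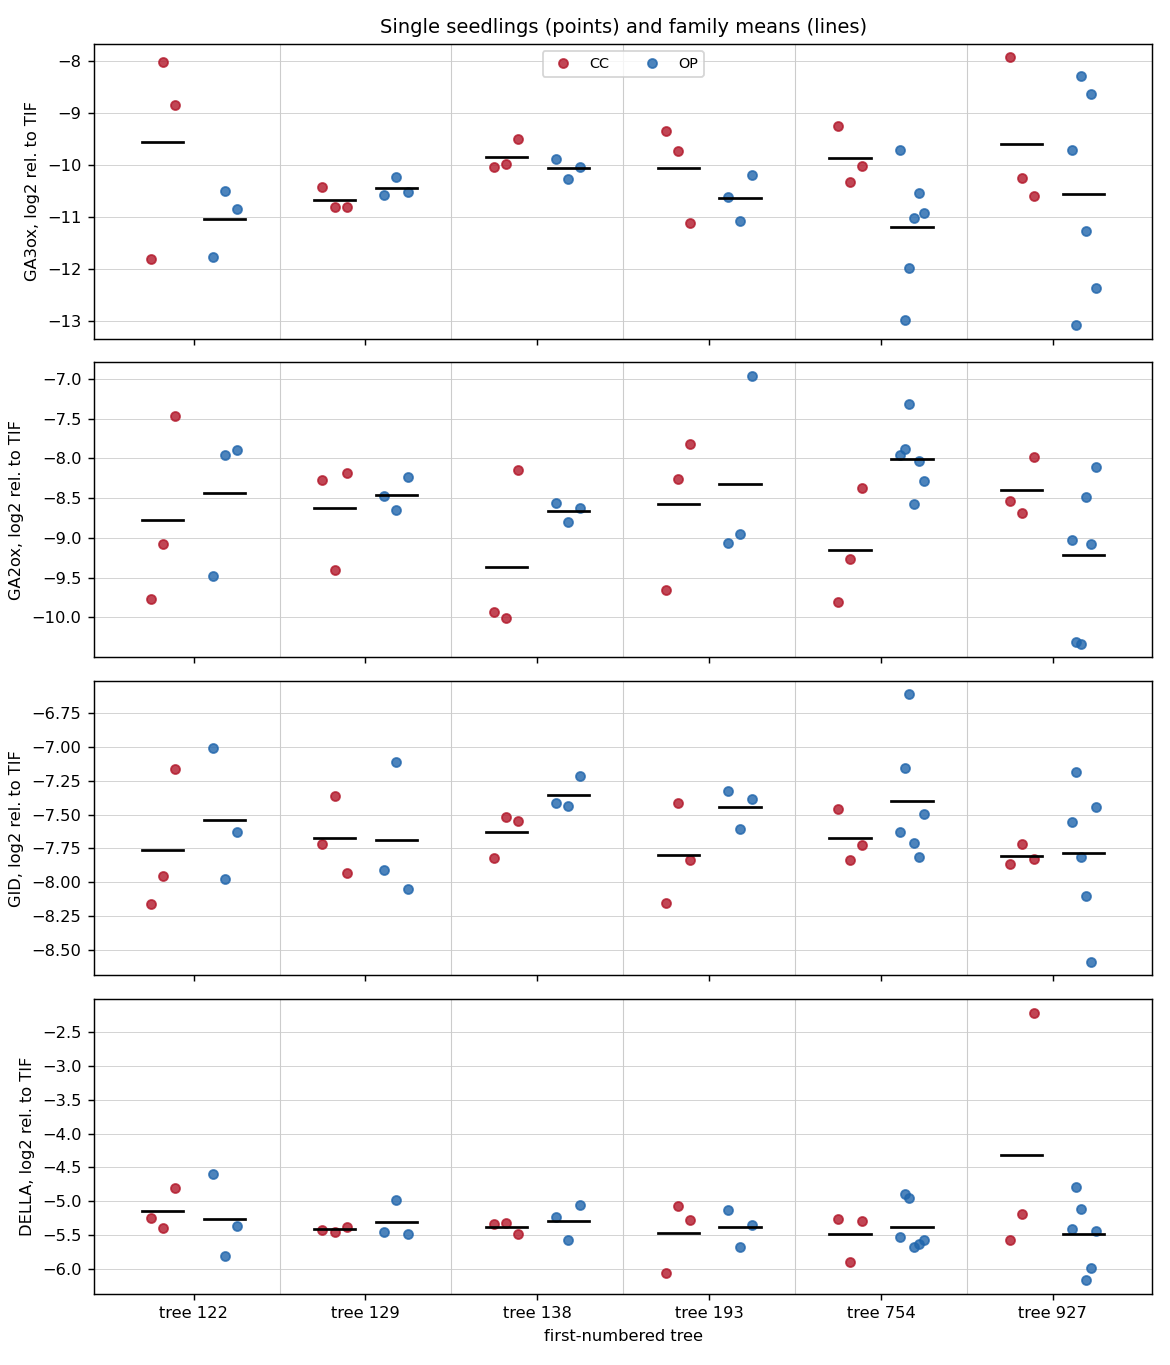
Single seedlings of the 6 trees (points, CC red and left, OP blue and right within a tree) with family means (black lines), for GA3ox, GA2ox, GID and DELLA on the log2 scale relative to TIF. Seedlings of the strategies overlap in every panel and tree except GID in tree 138, and one DELLA seedling of 927*991_CC stands at -2.22.

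GA2ox, the inactivating enzyme, averaged -8.81 ± 0.37 in CC families and -8.52 ± 0.41 in OP families (SD, n = 6 each). The difference of -0.30 ± 0.27 (SE), 0.815 of the OP level (interval 0.454 to 1.77), had an exact p of 0.312 (adjusted 0.521). Tree 927 went against the other trees, at 0.82, and without it the difference was -0.52 (exact p = 0.0625, adjusted 0.312). Without tree 754, the lowest at -1.14, it was -0.13. The remaining trees had differences of -0.70 in 138, -0.33 in 122, -0.25 in 193 and -0.17 in 129.

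The GA2ox gap in tree 754 came from CC seedlings at -9.81, -9.26 and -8.37 against OP seedlings with a lowest value of -8.57, a median of -7.99 and a highest of -7.32. Only the third CC seedling entered the OP range. An exact permutation test of 3 CC against 6 OP seedlings gave p = 0.0238 for this 0.454-fold level, and 0.238 after adjustment over the 10 such tests in trees 754 and 927, whose other 9 had unadjusted exact p from 0.119 to 0.917. These tests ignored the runs of consecutive sample numbers, over which CC and OP of both trees were spread unevenly. GA2ox averaged -9.16 over all seedlings used in samples 1 to 24 and -8.12 in samples 33 to 56. Within a run, CC minus OP in tree 754 was -1.58 in samples 1 to 24 (2 CC, 1 OP). It was -0.45 in samples 33 to 56 (1 CC, 3 OP). In tree 927 the CC seedlings were at -8.54, -8.68 and -7.98, against OP seedlings between -10.33 and -8.10 with a median of -9.05. The third CC seedling lay above every OP seedling of that tree. In tree 138 the CC seedlings at -9.94, -10.00 and -8.15 straddled a narrow OP family at -8.56, -8.80 and -8.62. The extreme GA2ox seedlings were both OP, 927_OP repetition 3 at -10.33 and 193_OP repetition 3 at -6.96.

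GID, the gibberellin receptor, averaged -7.72 ± 0.07 in CC families and -7.53 ± 0.17 in OP families (SD, n = 6 each), a difference of -0.19 ± 0.06 (SE) or 0.877 of the OP level (interval 0.779 to 1.01). The exact p was 0.0625 and the adjusted p 0.234. CC was lower by 0.36 in tree 193, 0.28 in tree 138, 0.27 in tree 754 and 0.22 in tree 122, nearly equal in tree 927 (-0.02), and higher by 0.02 in tree 129. The 6 CC family means lay between -7.80 and -7.63, a narrower span than the OP means between -7.78 and -7.35. Whether these spans differ was not tested.

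Tree 138 was the only case among the 30 pairs of gene and tree in which the seedlings did not overlap. Its CC seedlings had GID at -7.82, -7.52 and -7.55, all below its OP seedlings at -7.41, -7.44 and -7.21. With 3 against 3 seedlings the smallest two-sided p is 0.1, so that no test was made, and 1 such case among 30 pairs is no sign of a difference. The separation was present only relative to TIF. The GID cycles themselves overlapped, at 28.25, 27.52 and 28.73 in CC and 28.12, 28.14 and 28.87 in OP. Tree 193 came close, with CC at -8.15, -7.42 and -7.84 against OP at -7.33, -7.61 and -7.39. The extremes of the 42 were OP seedlings, 927_OP repetition 5 at -8.59 and 754_OP repetition 3 at -6.61, and the GID wells of the last had an SD of 1.09 cycles.

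The GID difference was present relative to TIF and not in the GID cycles themselves. The mean threshold cycle of GID was 28.76 in CC and 28.75 in OP families, a difference of 0.01 ± 0.17 cycles (SE), lower in CC in 2 of 6 trees. The TIF wells run with GID and DELLA crossed threshold earlier in CC, at 21.03 ± 0.34 against 21.22 ± 0.27 cycles in OP (SD, n = 6), a difference of -0.19 ± 0.16 (exact p = 0.281, adjusted 0.562). The TIF wells run with the oxidases did not share this, at 20.89 ± 0.36 in CC and 20.82 ± 0.22 in OP, a difference of 0.07 ± 0.18 (exact p = 0.844). The gap between the TIF sets thus differed between CC and OP by 0.26 ± 0.08 cycles, in the same direction in 5 of 6 trees (exact p = 0.0625). Against all 5 TIF wells the GID difference was -0.04 (exact p = 0.594), and without seedlings of repetition 1 it was -0.09 (exact p = 0.406).

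GA3ox behaved otherwise. Its threshold cycle without any control gene was 30.82 in CC and 31.47 in OP families, earlier in CC in 6 of 6 trees by 0.65 ± 0.28 cycles on average (SE). That has the smallest exact p of the design, 0.0312, which is 0.156 after adjustment over the 5 genes. The GA2ox cycle was later in CC in 5 of 6 trees, by 0.34 ± 0.15 (exact p = 0.0938), and the DELLA cycle differed by -0.33 ± 0.11, earlier in CC in 5 of 6 (exact p = 0.0625, adjusted 0.156), with a deviating DELLA well of 927*991_CC included. Cycles without a control gene also carry the amount of RNA in a reaction, which was set by mass per the protocol.

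DELLA, the repressor, averaged -5.20 ± 0.45 in CC families and -5.35 ± 0.08 in OP families (SD, n = 6 each), a difference of 0.15 ± 0.20 (SE) with an exact p of 0.844. The mean rested on a single reaction well. The DELLA wells of 927*991_CC repetition 3 read 20.94 and 27.33 cycles, and its value of -2.22 is the highest of the 42, whereas the well nearer to the other seedlings gives -5.41. With the deviating well set aside the difference was -0.03 ± 0.04 (SE), 0.980 of the OP level, with an exact p of 0.594 and differences from -0.10 to 0.11 over the 6 trees. Relative to its own TIF wells DELLA was then the gene with the smallest shift and the tightest interval, and CC was lower in 4 of 6 trees. Against all 5 TIF wells, with the deviating well kept, the DELLA difference was 0.29 (exact p = 0.0625, adjusted 0.234). That reference was not combined with setting the well aside. The lowest DELLA seedling was 927_OP repetition 4 at -6.16.

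**Figure D3:**
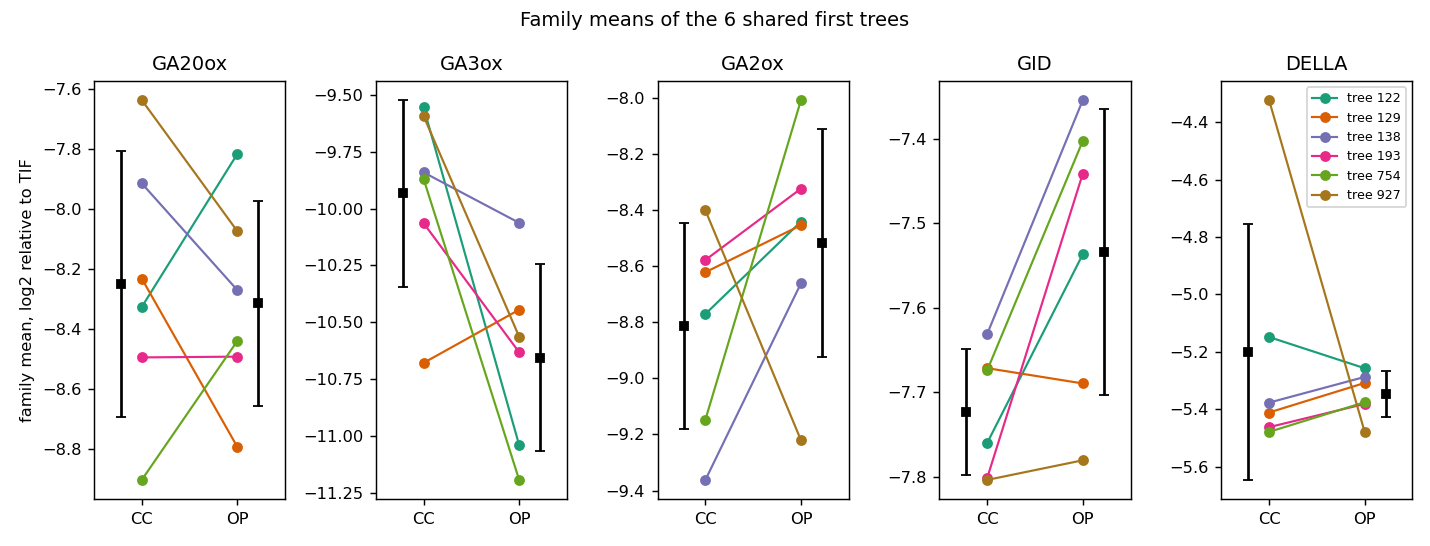
Family means of CC (left) and OP (right) for the 6 trees, joined by tree, with the mean and SD over families beside them (black squares), on the log2 scale relative to TIF. Lines slope both ways for every gene, most evenly for GA20ox (3 trees higher in CC and 3 lower). The order of the trees in CC differs from that in OP for every gene.

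Ratios within a seedling cancel the control gene. The first, synthesis to catabolism, took GA2ox from the average of both synthesis genes. It averaged -0.28 ± 0.47 in CC families and -0.97 ± 0.60 in OP families (SD, n = 6 each), a CC to OP factor of 1.61 (interval 0.922 to 2.97). The difference of 0.69 ± 0.24 (SE) was positive in 5 of 6 trees, with an exact p of 0.0625, also after adjustment over the 2 ratios. Tree 754 stood highest at 1.57, where the CC family had -0.24 and the OP family -1.81. Tree 927 was the exception at -0.12, as its OP family had the highest OP ratio, -0.10, against -0.21 in its CC family. Without values of wells with an SD over 0.5 cycles the difference was 0.50 (exact p = 0.0938), and without seedlings of repetition 3 it was 1.06 (exact p = 0.0312, adjusted 0.0625).

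Receptor to repressor, GID minus DELLA, averaged -2.52 ± 0.49 in CC families and -2.19 ± 0.15 in OP families (SD, n = 6 each). The difference of -0.34 ± 0.18 (SE), a factor of 0.791, was negative in 5 of 6 trees with an exact p of 0.0625. Tree 927, with the deviating DELLA well, gave -1.18 of it. Setting that well aside left -0.16 ± 0.06 (SE), a factor of 0.895, negative in 5 of 6 trees (exact p = 0.0938). With runs of consecutive sample numbers as a block it was -0.14 (exact p = 0.375). The other trees ranged from -0.33 in tree 122 to 0.12 in tree 129.

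Sample numbers in the titles fall into 5 runs, of which the labels do not say what they mark, and the families were spread unevenly over them. Seedlings of tree 754 had mean sample numbers of 20 in CC and 44.8 in OP, and those of tree 927 of 49.3 in CC and 20 in OP. Differences were therefore taken between seedlings of the same tree and the same run, which gave 12 comparisons covering all 6 trees. GA3ox was then higher in CC in 7 of 12 comparisons, with a mean over trees of 0.84, GA2ox lower in 9 of 12 (-0.35), and GID lower in 9 of 12 (-0.22). Synthesis to catabolism was higher in CC in 9 of 12, with a mean of 0.80, and in all 6 trees when the runs of a tree were averaged.

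The GA3ox difference was not alike in all runs. In samples 1 to 24 the trees 122, 129, 138 and 754 had differences between -0.15 and -0.03, and tree 927 had 2.27. In samples 33 to 56 the trees 122, 138, 193 and 754 had 2.24, 0.53, 0.91 and 1.98. Samples 25 to 32 gave -0.58 in tree 129 and 0.28 in tree 138, and samples 57 to 64 gave 2.12 in tree 927. Of the 12 comparisons, 6 set 1 CC against 1 OP seedling, and the difference between runs was not tested.

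Whether the CC minus OP difference depended on the tree was tested over seedlings by permutation within trees. The F of the tree by strategy term was 1.34 for GA2ox, 1.33 for DELLA, 1.16 for GA20ox, 0.49 for GA3ox and 0.26 for GID (5 and 30 degrees of freedom), with adjusted permutation p from 0.555 to 0.909. The spread of the tree differences was thus not detectably larger than the seedling spread gives, and the opposite signs of trees 754 and 927 in GA2ox did not pass as a difference between trees. Those trees were also spread over the runs of sample numbers in opposite ways. With the runs as a term the GA2ox F was 0.66 (5 and 26 degrees of freedom, permutation p = 0.665). Within a run, GA2ox in tree 927 differed by 0.91 in samples 1 to 24 and by -0.58 in samples 57 to 64.

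CC and OP families of the same mother did not resemble each other detectably. Across the 6 trees, CC and OP family means had a Pearson r of 0.44 for GID, 0.32 for GA20ox, -0.30 for GA3ox, -0.43 for GA2ox and -0.63 for DELLA, with exact permutation p from 0.210 to 0.582 and an adjusted p of 0.582 for each. All DELLA correlations here keep the deviating well of 927*991_CC, whose family mean was -4.32 with that well and -5.39 without it. They were not computed with the well set aside, so the sign for DELLA is not a result about mothers. Spearman's rho was 0.60 for GID, 0.31 for GA20ox, 0.09 for DELLA, -0.20 for GA3ox and -0.26 for GA2ox (exact permutation p from 0.242 to 0.919, adjusted 0.892 to 0.919). Without the 2 trees farthest from the OP median, r was 0.73 for GID, 0.89 for GA20ox, -0.68 for GA3ox, 0.94 for GA2ox and 0.97 for DELLA, each over 4 trees, so that the signs for GA2ox and DELLA rested on those trees. Pairing by mother narrowed the spread for GID, with an SD of the differences of 0.15 against 0.18 if the families were unrelated, and for GA20ox, with 0.47 against 0.56. It widened it for GA3ox, 0.66 against 0.58, for GA2ox, 0.65 against 0.55, and for DELLA with the deviating well kept, 0.50 against 0.45. With that well set aside the SD of the CC family means of DELLA fell from 0.45 to 0.12. The SE of its tree differences fell from 0.20 to 0.04. The DELLA values above therefore do not show that pairing widens its spread.

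Full siblings of a cross share both parents, and open-pollinated siblings need share only the mother. The spread among seedlings of a family was compared with that in mind. Pooled within-family SDs were 1.11 in CC and 1.24 in OP for GA3ox, 0.869 in CC and 0.734 in OP for GA2ox, and 0.566 in CC and 0.559 in OP for GA20ox. For GID they were 0.306 in CC and 0.431 in OP, and for DELLA 0.802 in CC and 0.419 in OP. The DELLA SD was larger in CC in 3 of 6 trees, most in tree 927 (1.83 in CC and 0.519 in OP). The ratio of SDs was also averaged over trees as a geometric mean. By that measure CC had 0.712 of the OP spread for GID, 0.731 for DELLA and 0.901 for GA20ox. It had 1.28 of the OP spread for GA3ox and 1.64 for GA2ox. None passed the threshold, with exact sign-flip p from 0.312 to 0.719 (adjusted 0.703 to 0.719). With the deviating well set aside, DELLA had 0.501 of the OP spread in CC, smaller in CC in 4 of 6 trees (exact p = 0.125). Single families of 3 gave extremes such as a DELLA SD of 0.04 in 129*756_CC against 0.28 in 129_OP.

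Receptor and repressor transcripts, each relative to the TIF wells they share, varied together among OP seedlings. After family means were taken out, DELLA and GID had a Pearson r of 0.85 and a Spearman rho of 0.88 over 24 OP seedlings. That pair was the only one of 20 gene pairs tested, 10 in CC and 10 in OP, to pass (adjusted permutation p 0.001 for r and 0.0004 for rho). The relation was known from earlier results of these data when the tests were chosen, so these p-values are not a fresh test. The r was 0.81 without the 2 seedlings of most extreme DELLA, 0.88 with the runs of sample numbers as a term, and between 0.83 and 0.88 without each OP family in turn. In 122_OP, for example, the seedling with the highest DELLA (-4.60) also had the highest GID (-7.01), and the one with the lowest DELLA (-5.81) the lowest GID (-7.97).

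DELLA and GID share their TIF wells, so a deviation of TIF moves both. In OP seedlings the deviations of the TIF cycle had an r of -0.03 with DELLA and of -0.17 with GID (permutation p = 0.876 and 0.487). In CC seedlings they had an r of 0.53 with DELLA and of 0.42 with GID (permutation p = 0.0147 and 0.175). Setting one gene against the other set of TIF wells gave an r of 0.58 with DELLA moved (permutation p = 0.0200, adjusted 0.207) and of 0.43 with GID moved (permutation p = 0.0401, adjusted 0.268), neither past the threshold. The raw cycles of DELLA and GID, which also share the amount of RNA, had an r of 0.97. Among CC seedlings DELLA and GID had an r of 0.23 and a rho of 0.50 (n = 18, adjusted permutation p 0.564 and 0.381), and an r of 0.68 with the deviating well of 927*991_CC set aside (permutation p = 0.0223, adjusted 0.156). With one gene against the other TIF wells the CC values were 0.05 and -0.01, where both DELLA wells were kept. The difference in r between CC and OP was not tested.

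**Figure D4:**
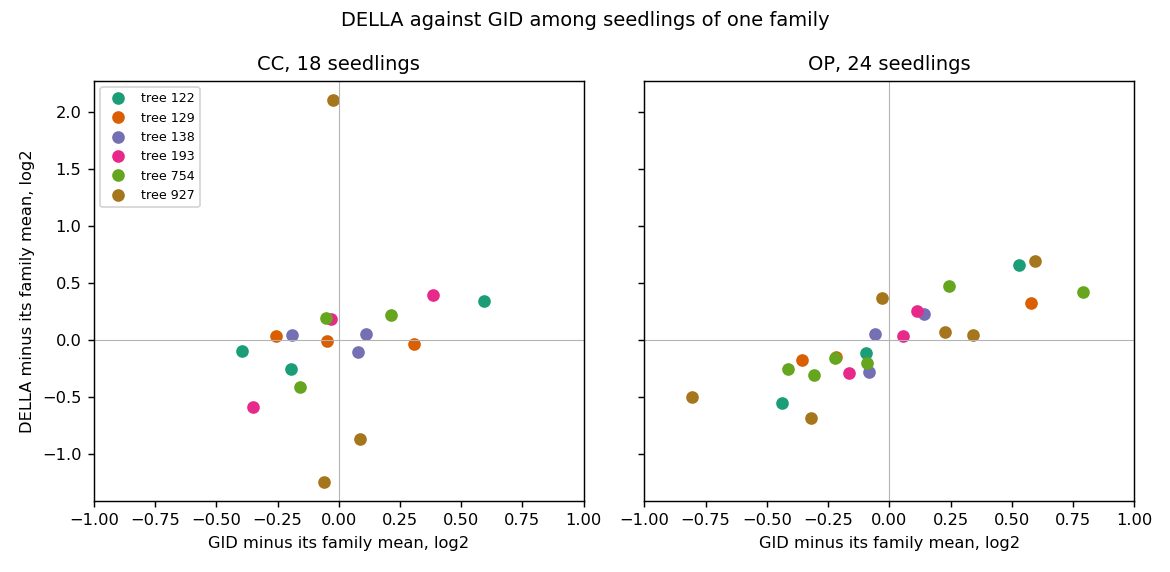
DELLA against GID, each as the deviation of a seedling from its family mean on the log2 scale, in 18 CC seedlings (left) and 24 OP seedlings (right), coloured by tree. OP points follow a rising line (r = 0.85). In CC, repetition 3 of 927*991_CC is set far above its siblings in DELLA by a well that read 20.94 cycles, which also moves the family mean away from those siblings.

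The remaining gene pairs gave no value past the threshold. GA3ox and GID were opposed among OP seedlings, with an r of -0.56 and a rho of -0.47 (permutation p = 0.0239 for r, adjusted 0.207), as seen in 927_OP repetition 2, which had the lowest GA3ox, -13.09, and a high GID of -7.19 for its family. Among CC seedlings the same pair had an r of 0.25. GA3ox and GA20ox, the synthesis enzymes, had an r of -0.02 in CC and of 0.04 in OP seedlings (rho -0.14 and 0.04). GA3ox and GA2ox had an r of 0.09 in CC and of -0.05 in OP, so that synthesis and inactivation transcripts showed no detectable link within families, although these genes share their TIF wells.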

How the data were processed

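Total RNA was reverse transcribed and amplified with SYBR Green over 40 cycles, per the labels' protocols. The deposited threshold cycles (Ct) cover 3 wells for each oxidase gene and its TIF set and 2 for DELLA, GID and a second TIF set, and the authors added a normalized sheet in log2 units, the target Ct minus the TIF Ct. No source used here states efficiencies or software. Of 210 deposited values in the 42 seedlings, 195 equalled this rule within 0.001 cycles, 205 it or a reference of all 5 TIF wells, and 5, in 754_OP repetition 1 and 927*991_CC repetition 2, neither. In 754_OP repetition 1 the last wells of the oxidase genes appear moved by 1 gene (GA20ox at 28.9, 28.9 and 20.3), which the deposited log2 values do not carry. In 36 of 168 sets of 3 wells the last was, to 0.0001 cycles, the average of the first and second, and well SDs may then be too small.

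Values are the deposited log2 values with the sign turned, with no filter, averaged per family and paired by first tree. The members, genes and tests were chosen with earlier results of these data known, among them the DELLA and GID relation and the 5 runs of sample numbers. The rule for names was all 5 genes in each comparison, each tree's family means, and single seedlings at an extreme, with discordant wells or outlying. Between CC and OP, deviations of seedlings of equal repetition number had r of 0.30, 0.17 and 0.45 over the 5 genes, which was not tested. Unequal numbers gave r from -0.54 to 0.48, the highest for CC repetition 2 with OP repetition 1. The repetition was also used as a block. Permutation used 64 sign patterns, 720 pairings or 100000 resamples in Python 3.11.15 with numpy 2.4.6, scipy 1.17.1 and pandas 2.3.3, and the tests were tested on simulated data. The number of families, 6 pairs, limits the precision. Alternatives were values recomputed from Ct, well medians, another reference, the linear scale, ranks, unpaired tests, the seedling as the unit, blocks for repetition and sample run, exclusion of discordant wells, and each repetition and tree left out. The unreferenced cycles, the misplaced wells left out, the other TIF set for DELLA or GID, the well set aside in the spread and in that relation, and the families left out of it were added after seeing the data. Polymix families and the OP families 96 and 154 were left out of the paired comparison, since the rule takes only CC and OP of shared trees. No gene sequence was used.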

Additional observations from a re-analysis of the deposited data

Results flagged for a closer look

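Of 35 sets of 6 family means, tree differences or TIF values, and of seedlings of 6-seedling families, 4 held a sample far from the others, where chance gives about 1 in 20. All 4 are in tree 927. The DELLA mean of 927*991_CC was -4.32, and the CC minus OP difference of DELLA in that tree was 1.16. The receptor to repressor ratio of that family was -3.48, and its CC minus OP difference was -1.18. Each includes repetition 3, whose DELLA wells read 20.94 and 27.33 cycles. With the deviating well set aside the DELLA mean was -5.39 and its difference 0.09, and the ratio was -2.42 and its difference -0.11.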

How the results depend on the processing

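No gene passed the adjusted threshold under any of 26 alternatives (lowest adjusted p of an exact or permutation test 0.101). The 6 that leave out a tree could not pass, as their smallest exact p is 0.0625. In the other paired settings a single gene or ratio could not pass alone. At the smallest exact p of 0.0312 its adjusted p would be 0.156 for a gene and 0.0625 for a ratio. The direction was the same in all 26 for the GA3ox, GA2ox and GID differences and both ratios, from 0.55 to 0.93, -0.54 to -0.13 and -0.28 to -0.0057 on the log2 scale for the genes. At an unadjusted p under 0.05 the count was 1 on the linear scale, 2 unpaired, 2 against all 8 OP families, 1 with the seedling as the unit, 1 with no reference gene, also without the misplaced wells, and 0 to 1 with a repetition left out. Both ratios passed against all 8 OP families (0.66 and -0.33, adjusted exact p 0.0366). They also passed with the seedling as the unit (0.69 and -0.37, adjusted permutation p 0.0313 and 0.0138). These fits drop the pairing or count siblings as replicates, and their receptor to repressor values keep the deviating DELLA well. Setting that well aside was not combined with either fit. In the paired comparison it moved the receptor to repressor difference from -0.34 to -0.16. GA20ox turned to -0.015 when recomputed from Ct, to -0.12 with all TIF wells and to -0.080 with none. All 3 carry the misplaced wells of 754_OP repetition 1, and without those wells they were 0.065, -0.038 and -0.00051. It ranged from -0.037 to 0.18 with a repetition or tree left out. DELLA turned to -0.085 by ranks, -0.037 with sample runs as a block, -0.027 without discordant wells and -0.029 with the deviating well set aside, and ranged from -0.058 to 0.35 with a repetition or tree left out. The TIF difference of the oxidase wells ranged from -0.089 to 0.14 in the same way. With sample runs taken out, the log2 ratios of within-family SD turned to -0.24 for GA2ox and -0.17 for GA3ox, and 5 correlations, none past the threshold, turned: in CC, GA2ox with GA3ox (-0.013), GA2ox with DELLA (-0.29), GA3ox with GA20ox (0.12) and GA20ox with DELLA (0.052), and in OP, GA2ox with GA3ox (0.084). In CC the DELLA and GID relation was -0.0084 with GID against the other TIF wells, and 0.13 to 0.68 with a family left out. The cause of these turns was otherwise not tested. With the replicate block, repetition 1 to 3 paired between CC and OP, GA3ox was 0.75 and GID -0.28 (exact p 0.0938 and 0.0625), and no call changed.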
